A study of Mus musculus with 2 samples.

Results

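The 10 genes described here encode secreted factors that pericytes (PCs) release and that act on the growth and stability of blood vessels: *Vegfa*, *Vegfb*, *Vegfc*, *Pgf*, *Angpt1*, *Angpt2*, *Angptl2*, *Angptl4*, *Angptl6* and *Hgf*. They were found by symbol among the 31053 genes of the deposited tables, and all 10 had a UMI (unique molecular identifier, which tags 1 captured RNA molecule) in both libraries. Single cell RNA-seq was made from primary brain PCs of wild type female C57BL/6N mice, 6 to 8 weeks old. The cells were grown without added endothelial cells on collagen-coated plates, at first in endothelial and later in pericyte medium. One library was made at passage 5 (PC5) and 1 at passage 20 (PC20). The brains of 6 mice were pooled for each isolation, and by the paper's methods PC5 and PC20 came from separate isolations, so that passage and isolation cannot be told apart. The text deposited with the files names 6 mice and reads as a single isolation, and the paper's account was followed. With 1 library per passage no difference between passages has a replicate check, no test was made, and the 95% intervals below cover counting error only.

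The cells kept had more than 1000 genes and less than 20% of UMIs from mitochondrial genes, which left 9950 of 10629 barcodes in PC5 and 4749 of 4884 in PC20, with 20 barcodes seen in both. The kept cells held 223054273 and 191122251 UMIs, with a median of 21700 UMIs per cell in PC5 and 33424 in PC20. The cell type label was checked on 8 pericyte markers. *Pdgfrb*, the receptor of the pericyte growth factor PDGF-B, was seen in 54.2% of cells in PC5 and in 16.5% in PC20. At deposited depth it was 1 of 3 markers found in 10% or more of PC5 cells, with *Cspg4* and *Notch3*. It was the only one in PC20, where *Rgs5*, *Kcnj8* and *Vtn* were at 0. In PC5, *Rgs5* was in 2.83% of cells, and *Kcnj8* and *Vtn* were in at most 0.191%. *Anpep* went the other way, in 4.05% of cells in PC5 and 9.43% in PC20, and *Abcc9* had 1 UMI in each library. PC20 was the deeper library, which raises its shares. With each cell thinned at random to the same depth, as described below, *Pdgfrb* was in 35.3% of PC5 and 5.25% of PC20 cells. This was the highest share of the 8 markers in each library, so none reached 10% in PC20. *Notch3* was in 10.0% and *Cspg4* in 4.70% of thinned PC5 cells. The name PC follows the paper, and at equal depth these markers alone did not establish it for PC20. Of 8 endothelial markers, 3 were in 10% or more of PC5 cells, *Cdh5* (168 CPM, UMIs of a gene per 1000000 UMIs of the library), *Flt1* (17.6 CPM) and *Kdr* (12.8 CPM). In PC20 only *Flt1* was, at 73.9 CPM and in 76.3% of cells, with *Cdh5* at 0.0262 CPM, while *Pecam1* and *Cldn5* were at most 0.542 CPM in either.

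Markers of other cells of the brain were also present. Of 4 fibroblast markers, 3 reached 10% of cells in PC5 and 1 did in PC20, with a sum of 1302 CPM against 101 CPM. *Pdgfra* was at 88.6 and 0.131 CPM, *Dcn* at 51.3 and 0.167 CPM, and *Col3a1* at 1158 and 101 CPM, while *Lum* was at 3.57 CPM and at 0. Of 4 smooth muscle markers, summing to 283 and 49.6 CPM, *Tagln* was at 219 and 0.230 CPM and *Acta2* at 62.8 and 49.2 CPM, while *Myh11* and *Cnn1* were at most 0.731 CPM. Of 4 astrocyte markers, summing to 151 and 229 CPM, *Slc4a4* was in 74.2% and 93.1% of cells and *Aldh1l1* at 7.35 and 0.0262 CPM, while *Gfap* and *Aqp4* were at most 0.435 CPM. Microglia and oligodendrocyte markers reached at most 3.18% of cells. Most fibroblast markers and *Tagln* were thus higher in PC5, the library in which *Vegfc*, *Angpt1*, *Angpt2*, *Angptl4* and *Hgf* were higher, and their part in those differences was not tested. A separate list of 10 genes of more distant lineages reached at most 0.191% of cells in PC5 and 0.379% in PC20, a level read here as background. It is the level of the highest gene of the list, *Cd79a* of B cells in PC5 and *Slc17a7* of neurons in PC20. In PC20, 7 of the 10 genes had no UMI.

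The vascular endothelial growth factors are ligands of receptor tyrosine kinases on endothelial cells, and *Vegfa* is the one that drives most sprouting of new vessels. Its transcription is raised by hypoxia-inducible factors (HIF), which are stable when oxygen is low. The angiopoietins act on the receptor Tie2, encoded by *Tek*, through which *Angpt1* from pericytes steadies the endothelium and *Angpt2* can loosen it. The angiopoietin-like proteins resemble angiopoietins but do not bind Tie2, and hepatocyte growth factor, encoded by *Hgf*, acts on the receptor MET.

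The sequences before the starts of 4 of these genes are shown because the results below turn on them: *Vegfa* and *Vegfb* were abundant in both libraries, *Angptl6* was far higher in PC20, and *Hgf* was far higher in PC5. Each line holds the 250 bases before the gene start that lies first in its gene, from RefSeq, 5′ to 3′ on the strand of the gene, with matches to the HIF core motifs ACGTG and GCGTG on either strand in capitals.
*Vegfa*, GRCm38.p6 chr17:46032378-46032627, minus strand: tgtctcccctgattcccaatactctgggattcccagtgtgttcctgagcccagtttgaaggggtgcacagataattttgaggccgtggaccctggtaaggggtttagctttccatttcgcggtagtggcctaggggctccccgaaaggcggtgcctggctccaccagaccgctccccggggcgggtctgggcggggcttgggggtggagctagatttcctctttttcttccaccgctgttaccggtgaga
*Vegfb*, GRCm38.p6 chr19:6987652-6987901, minus strand: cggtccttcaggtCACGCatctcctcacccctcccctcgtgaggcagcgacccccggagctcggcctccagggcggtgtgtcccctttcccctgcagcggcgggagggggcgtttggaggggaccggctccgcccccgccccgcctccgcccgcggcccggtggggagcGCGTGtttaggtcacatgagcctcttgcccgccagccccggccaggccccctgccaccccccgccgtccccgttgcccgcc
*Angptl6*, GRCm38.p6 chr9:20879711-20879960, minus strand: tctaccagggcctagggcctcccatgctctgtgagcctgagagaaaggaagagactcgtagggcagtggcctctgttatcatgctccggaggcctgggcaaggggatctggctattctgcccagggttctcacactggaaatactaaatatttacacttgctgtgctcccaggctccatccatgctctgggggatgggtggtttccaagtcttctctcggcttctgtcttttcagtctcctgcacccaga
*Hgf*, GRCm38.p6 chr5:16553245-16553494, plus strand: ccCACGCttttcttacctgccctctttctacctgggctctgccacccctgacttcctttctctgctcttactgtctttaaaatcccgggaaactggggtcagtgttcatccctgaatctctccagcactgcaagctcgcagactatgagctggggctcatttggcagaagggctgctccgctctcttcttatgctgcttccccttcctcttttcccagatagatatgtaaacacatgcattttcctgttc
The *Vegfb* sequence held 2 matches to GCGTG, 1 on each strand, and the *Hgf* sequence held 1 on the opposite strand, whose first base lay 248 bases before the start. The *Vegfa* and *Angptl6* sequences held no match, which says only that these letters are not in these windows. A second RefSeq start inside *Vegfa* had 2 matches, 1 to each motif. Over all 32851 windows of this length, 38.6% held at least 1 match (16.6% ACGTG and 28.2% GCGTG), and the motifs overlap each other where ACGTG is read on both strands. Of the 10 windows found for 7 of the members, 4 held a match. The *Vegfb* window had a GC content of 76.4% with 26 CpG sites, against 54.8% and 3 CpG sites for *Angptl6* and a median of 52.4% and 6 over all windows.

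*Vegfa* was the most abundant of the 10 genes in both libraries, and the genes that followed it differed. In PC5 the order of levels was *Vegfa*, *Vegfb*, *Angpt2*, *Angptl4*, *Angptl2*, *Hgf*, *Vegfc*, *Pgf*, *Angpt1* and *Angptl6*. In PC20 it was *Vegfa*, *Angptl6*, *Vegfb*, *Angptl2*, *Pgf*, *Angpt2*, *Angptl4*, *Angpt1*, *Vegfc* and *Hgf*. Neighbours in these orders whose intervals overlapped were *Angpt2* and *Angptl4* in PC5, and *Angptl4* and *Angpt1* in PC20. Each molecule is counted once from its 3′ end, so CPM was compared between genes without dividing by length. Summed over the 10 genes, PC5 had 338 CPM and PC20 had 457 CPM.

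**Figure D1:**
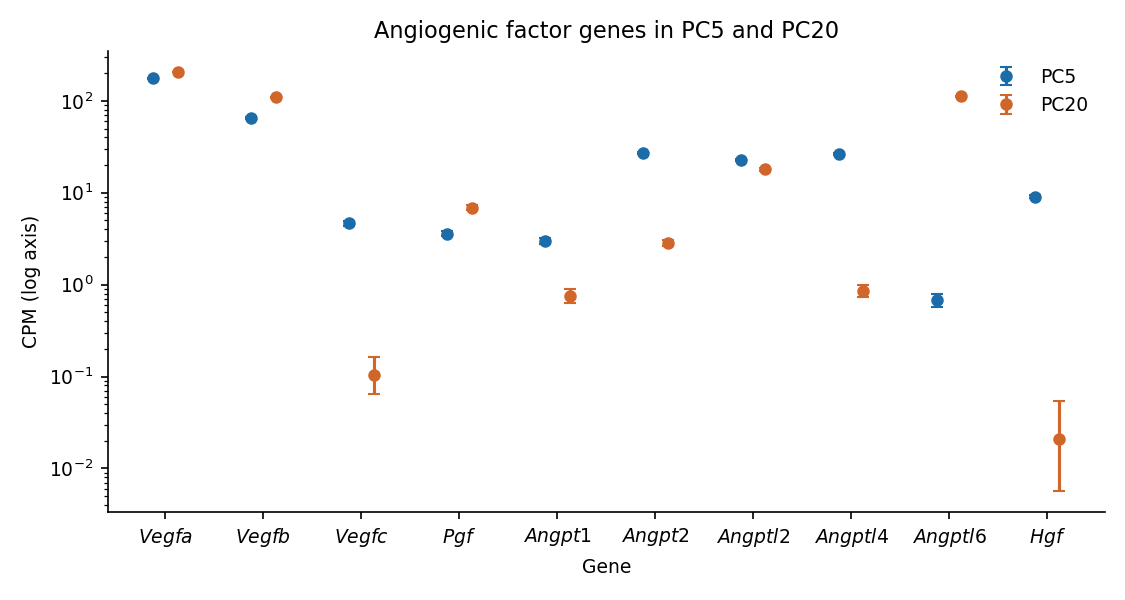
CPM of each of the 10 genes (log axis) in PC5 (blue) and PC20 (orange), with 95% Poisson intervals of the counts as bars, most of them shorter than the points. The blue and orange points lie close for *Vegfa*, *Vegfb* and *Angptl2*, and far apart for *Angptl6* (0.681 and 113 CPM) and *Hgf* (9.06 and 0.0209 CPM).

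Among the VEGF ligands, *Vegfa* (ENSMUSG00000023951, chr17:46016993-46032369, minus strand, mm10) had 175 CPM in PC5 (interval 174 to 177) against 205 CPM in PC20 (203 to 207). The log2 of PC5 over PC20, used for all members, was -0.23 (-0.25 to -0.21), a small difference beside those of most other members. *Vegfb* (chr19:6982473-6987651, minus strand), a ligand of the receptor encoded by *Flt1*, had 65.2 CPM in PC5 against 109 CPM in PC20. Its log2 ratio was -0.74 (-0.77 to -0.71). *Pgf*, which encodes placental growth factor, another ligand of that receptor, was low in both, with 3.59 CPM in PC5 against 6.89 CPM in PC20 (log2 ratio -0.94, -1.07 to -0.81). These 3 ligands of *Flt1* were thus all higher in PC20, by 1.17-fold, 1.67-fold and 1.92-fold. The log2 ratio of *Pgf* was smaller, at -0.62, as a mean over cells, and -0.79 without the 5% of cells with the most UMIs.

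*Vegfc*, the ligand of the lymphatic receptor encoded by *Flt4*, went the other way. PC5 held 1033 of its UMIs, or 4.63 CPM, while PC20 held 20, or 0.105 CPM, and the log2 ratio was 5.47 (4.83 to 6.19). The PC20 UMIs lay in 0.421% of cells, close to the background level of 0.379%. *Vegfd*, a further ligand of *Flt4* that is not among the 10 genes, was more abundant than *Vegfc* in both libraries and had the same direction, with 50.5 CPM in PC5 against 3.78 CPM in PC20 (log2 ratio 3.74, 3.63 to 3.85). It was the only 1 of the 6 other genes of the VEGF and angiopoietin families that reached 10% of cells in a library.

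Both angiopoietins were higher in PC5. *Angpt2* (chr8:18690263-18741562, minus strand) had 27.3 CPM in PC5 (26.7 to 28.0) against 2.84 CPM in PC20 (2.60 to 3.08), and its log2 ratio was 3.27 (3.14 to 3.40). *Angpt1*, the ligand that activates Tie2 and a known product of pericytes in vessels, had 3.01 CPM in PC5 against 0.753 CPM in PC20 (log2 ratio 2.00, 1.74 to 2.27). *Angpt2* therefore outweighed *Angpt1* in both libraries.

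Of the angiopoietin-like genes, *Angptl2* was close between the libraries, *Angptl4* higher in PC5, and *Angptl6* higher in PC20. *Angptl2*, which encodes a secreted glycoprotein linked to tissue inflammation, had 22.9 CPM in PC5 against 18.0 CPM in PC20 (log2 ratio 0.34, 0.28 to 0.41). *Angptl4*, which encodes an inhibitor of lipoprotein lipase and is raised by fasting and hypoxia in many tissues, had 26.3 CPM in PC5 against 0.858 CPM in PC20 (log2 ratio 4.94, 4.71 to 5.17). *Angptl6* (chr9:20873808-20879727, minus strand), which encodes a growth factor best known from liver, was counted 152 times in PC5 but 21554 times in PC20. The levels were 0.681 CPM (0.577 to 0.799) and 113 CPM (111 to 114), which made it 165-fold higher in PC20, with a log2 ratio of -7.37 (-7.61 to -7.14). In PC5 it was in 1.49% of cells, above the background level of 0.191%. The opposite strand at *Angptl6* holds *A230050P20Rik*, which had 2110 UMIs in PC5 and 2157 in PC20.

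*Hgf* (chr5:16553495-16620152, plus strand) had 2021 UMIs in PC5, or 9.06 CPM (8.67 to 9.46). In PC20 it had 4 UMIs in all, or 0.0209 CPM (0.0057 to 0.0536), and its log2 ratio was 8.76 (7.40 to 10.64). The 4 UMIs lay in 0.0842% of PC20 cells, below the background level of 0.379%, so *Hgf* did not exceed that level in PC20 at this depth.

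Counted by size, 8 of the 10 genes reached 10% of cells in PC5 or in PC20, which leaves out *Vegfc* (9.53% of PC5 cells) and *Angpt1* (5.94%). Of these 8, *Angpt2*, *Angptl4* and *Hgf* were at least 2-fold higher in PC5, where 17.9% of the 10504 genes so expressed were, and *Angptl6* was at least 2-fold higher in PC20, where 19.1% were. The median log2 ratio of the 8 was 0.06, against -0.03 over all 10504.

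The differences were also seen in the share of cells in which each gene was found. *Vegfa* had a UMI in 84.1% of cells in PC5 and 94.9% in PC20, and *Vegfb* in 69.6% and 90.8%. Shares move with depth, so each cell was also thinned at random to 10500 UMIs, which left 8847 PC5 cells and 4474 PC20 cells, with 1103 and 275 shallower cells left out. The thinned shares were 72.1% and 83.3% for *Vegfa*, and 48.9% and 66.9% for *Vegfb*. *Angptl2* was in 34.6% of PC5 and 39.5% of PC20 cells before thinning and, in the opposite order, in 20.2% and 14.3% after it, which is the order of its CPM.

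*Angptl6* was found in 87.0% of PC20 cells, or 64.4% after thinning, and in 0.791% of thinned PC5 cells. Of the genes higher in PC5, *Angptl4* was in 36.2% of PC5 cells (21.6% thinned) and 2.88% of PC20 cells (1.05% thinned). *Angpt2* was in 28.4% and 9.29% (18.9% and 2.91% thinned), and *Hgf* in 14.9% of PC5 cells (8.70% thinned). A thinned cell had UMIs of a median of 2 of the 10 genes in both libraries, and none were seen in 6.62% of cells in PC5 and 1.81% in PC20.

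**Figure D2:**
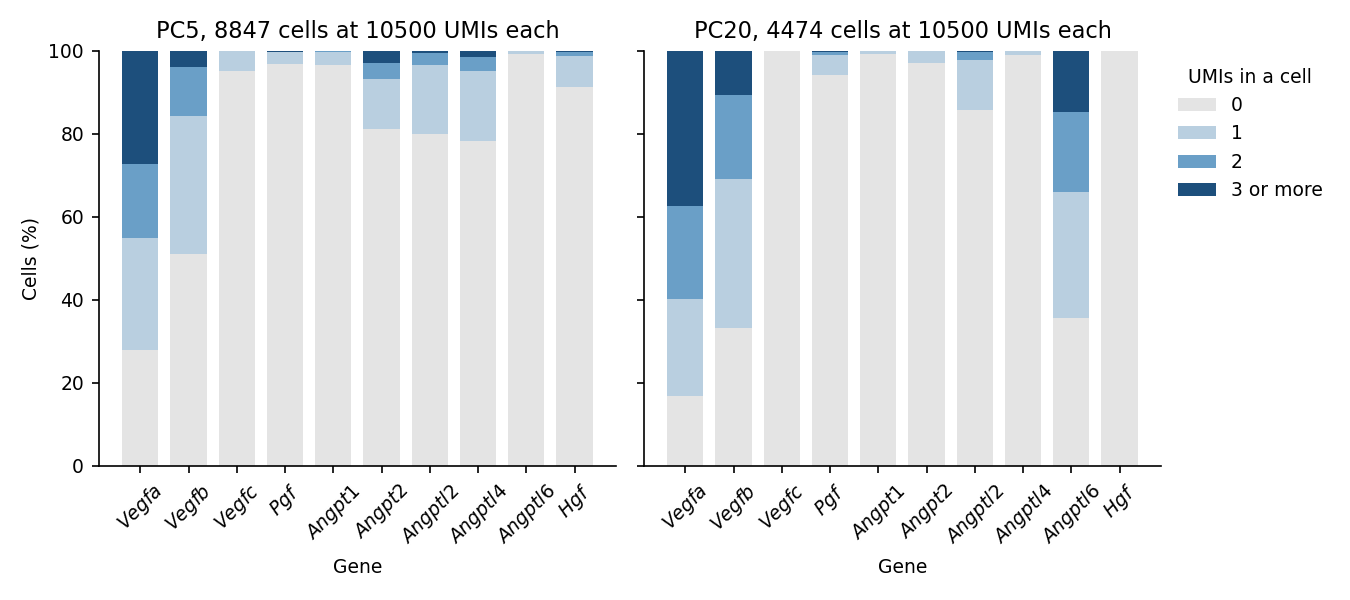
Share of cells (%) with 0, 1, 2 or 3 and more UMIs of each gene, after each cell was thinned to 10500 UMIs, in PC5 (left, 8847 cells) and PC20 (right, 4474 cells). *Vegfa* had 3 or more UMIs in 27.2% of cells in PC5 and 37.4% in PC20, and *Angptl6* in 14.8% in PC20.

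The spread between cells was measured as the variance over the mean of the thinned UMIs, which is 1 when molecules fall on cells by chance alone, and set beside genes of like mean. *Angpt2* in PC5 had a value of 2.23, above 99.4% of 1357 genes of like mean, whose median was 1.06. The 10% of cells with the most *Angpt2* UMIs held 71.7% of them. Sparse counts alone raise this share, which was 59.7% for *Angptl4* and 58.1% for *Angptl2* in PC5. *Vegfb* had a variance over the mean of 1.07 in PC5 and 1.06 in PC20, above only 18.6% and 9.89% of genes of like mean. *Vegfb* was thus spread over the cells nearly as chance would spread it, while *Angpt2* was held by a minority of PC5 cells.

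*Vegfa* was spread unevenly in PC5, at 2.27 against a median of 1.29 over 354 genes of like mean, and less so in PC20, at 1.59 against 1.29. Its deposited counts ran from 0 to 41 UMIs per cell in PC5, with a median of 3, and to 55 in PC20, with a median of 7. *Pgf* was uneven in both libraries, at 1.77 in PC5 and 1.55 in PC20, above 98.0% and 98.6% of genes of like mean. *Angptl4* (1.55) and *Hgf* (1.28) in PC5 lay above 97.5% and 96.2%. *Angptl6* in PC20 was at 1.30, above 76.6% of genes of like mean.

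Clusters were built from the cells of both libraries with the 10 genes left out of the variable genes. They numbered 16, of which 9 were mostly PC5 cells and 7 mostly PC20 cells, and 98.4% of cells lay in clusters with at least 95% of 1 library. Clusters were left unnamed and are given by number with their leading genes, and a cluster set against the rest is a description only. Cluster 10 of PC5 and cluster 13 of PC20 had a median of 5671 and 6710.5 UMIs, far below the other clusters. They held the lowest *Vegfa* levels, 42.1 and 97.6 CPM, and are left out of the ranges that follow.

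*Angpt2* was highest in cluster 5 of PC5, whose leading genes included *Xlr*, *Mgp*, *Chst15* and *Angpt2* itself, at 107 CPM (102 to 111) and in 68.9% of its cells. This cluster held 11.7% of PC5 cells and 41.6% of their *Angpt2* UMIs, while the lowest of the other clusters, cluster 1 of cells rich in mitosis genes (*Kif11*, *Nusap1*, *Kif14*, *Aspm* and *Sgo2a*), was between 11.1 and 12.9 CPM by its interval. *Pgf* and *Angptl4* were also high in cluster 5, at 11.3 and 41.6 CPM. *Vegfa* (122 CPM) and *Hgf* (3.82 CPM) were low there.

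*Vegfa* was highest in cluster 6 of PC5, led by *Stra6*, *Col6a3*, *Acpp*, *Vav3* and *Slc14a1*, at 379 CPM (370 to 388) and in 97.6% of its 845 cells. The other PC5 clusters ran from 122 to 211 CPM. *Hgf* was highest in cluster 3, led by *Trf*, *Il33*, *Serinc5*, *Sparcl1* and *Bmp7*, at 22.1 CPM (20.5 to 23.8) and in 28.0% of its cells. That cluster held 15.7% of PC5 cells and 34.5% of *Hgf* UMIs, and cluster 15, of 81 cells, held 0 *Hgf* UMIs, which allows up to 2.82 CPM. *Angptl2* was highest in cluster 15, at 50.5 CPM from 66 UMIs, and next in cluster 3, at 38.9 CPM. The genes *Angpt2*, *Vegfa* and *Hgf* thus had their highest levels in different clusters of PC5. With coarser clusters (resolution 0.4 in place of 0.8, 7 in all) the highest cluster over the library was 1.18 for *Vegfa* in place of 2.16, 1.19 for *Hgf* in place of 2.44, and 2.31 for *Angpt2*, where it had been 3.9.

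Within PC20, *Pgf* varied the most over the clusters among the members with at least 500 UMIs. *Vegfa* ran from 160 CPM in cluster 11 to 271 CPM in cluster 9, and *Angptl6* from 72.4 CPM in cluster 11 to 129 CPM in cluster 7. *Pgf* was at 26.8 CPM (24.7 to 29.0) and in 62.3% of the 334 cells of cluster 11, whose leading genes included *Cdo1*, *Bgn*, *Tnnt1* and *Platr3*. These were 7.03% of PC20 cells with 45.4% of *Pgf* UMIs, and cluster 7, led by replication genes such as *Cdc6* and *Exo1*, was at 1.29 CPM. The cells of cluster 11 were also the deepest, with a median of 53654.5 UMIs. *Vegfb* was even over the clusters, from 58.7 to 74.2 CPM in PC5 and from 97.4 to 122 CPM in PC20.

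**Figure D3:**
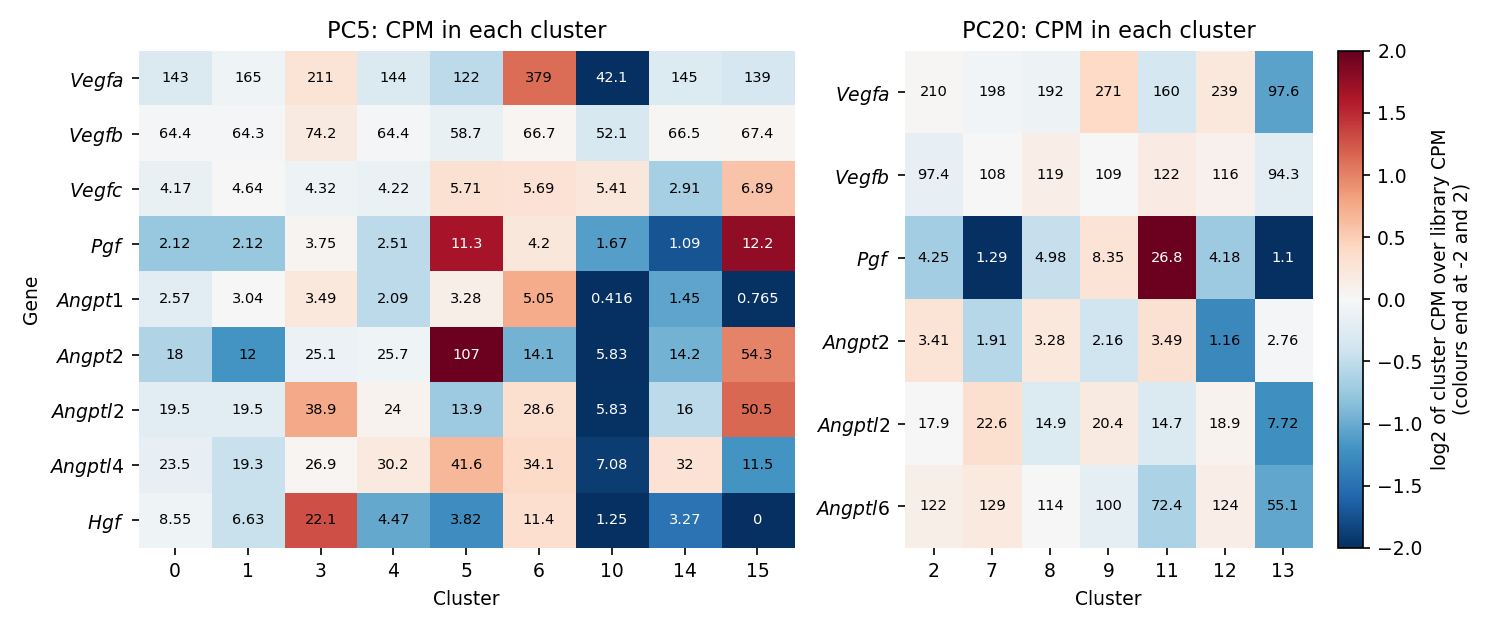
CPM of the members with at least 500 UMIs in a library (numbers) in each cluster of PC5 (left) and PC20 (right), coloured by the log2 of cluster CPM over library CPM, with the colours ending at -2 and 2. *Angpt2* stands out in cluster 5, *Vegfa* in cluster 6 and *Hgf* in cluster 3 of PC5, and *Pgf* in cluster 11 of PC20.

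Several members differed between cells with and without a UMI of the proliferation genes *Mki67* and *Top2a*, at equal depth. Such UMIs were seen in 35.6% of thinned cells in PC5 and 57.6% in PC20. *Angpt2* in PC5 was at 37.1 CPM in cells without them and 16.9 CPM in cells with them, a log2 ratio of -1.14 (-1.27 to -1.0). *Pgf* was lower in cells with them in both libraries, with log2 ratios of -1.17 (-1.57 to -0.78) in PC5 and -0.80 (-1.12 to -0.47) in PC20.

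The ratios of *Angptl4* (-0.45), *Angptl2* (-0.30) and *Hgf* (-0.28) in PC5 were smaller. Their intervals did not reach 0, but these cover counting error only and are too narrow for genes spread unevenly between cells. *Vegfa* had -0.05 in PC5 and -0.08 in PC20, and the intervals of *Vegfb* in both libraries and of *Angptl6* in PC20 included 0. Between the libraries, cells without these UMIs gave a log2 ratio of 3.96 for *Angpt2* and -1.11 for *Pgf*, which then passed 2-fold.

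Since *Vegfa* is a HIF target, the members were read over cells ordered by the thinned UMIs of 18 other HIF targets, such as *Car9*, *Pgk1*, *Bnip3* and *Ero1l*. Of these, 17 were higher in PC20, 15 of them at least 2-fold, as 19.1% of all expressed genes were, and *Pfkfb4* was higher in PC5. The list was chosen with earlier results of these data known and does not hold every HIF target. *Angptl4*, a HIF target outside it, was higher in PC5, at 26.3 against 0.858 CPM, while *Vegfa* was slightly higher in PC20. Summed, the 18 listed genes had 3518 CPM in PC5 against 12169 CPM in PC20. The small *Vegfa* difference thus stood beside a median log2 ratio of -1.58 for this list. A few abundant genes made up most of these sums. In PC5 they were *Ldha* (1057 CPM), *Pgk1* (817), *Aldoa* (525) and *Eno1* (239), whereas *Car9* had only 0.664 CPM. *Ero1l* (2639 CPM) led the PC20 sum, followed by *Pgk1* (2069), *Aldoa* (1883), *Ldha* (1642) and *Eno1* (1118). The order of cells therefore rests largely on these genes, and equal weights for the 18 targets were not tested. Of the HIF subunits, *Hif1a* was at 183 and 170 CPM and *Epas1* at 7.27 and 0.759 CPM.

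Within each library, *Vegfa* was higher in cells with more HIF target UMIs. With the cells split into 4 groups of equal size, from the fewest to the most HIF target UMIs, *Vegfa* was at 117, 147, 179 and 263 CPM in PC5, and at 158, 204, 211 and 285 CPM in PC20. The log2 ratios of the top over the bottom group were 1.16 (1.10 to 1.23) and 0.86 (0.78 to 0.94). *Angptl6* in PC20 was ordered the same way, at 70.2, 113, 135 and 144 CPM, with a top over bottom ratio of 1.04 (0.92 to 1.16) on the log2 scale. In PC5, *Hgf* was at 5.47, 8.31, 10.9 and 14.2 CPM, where the same ratio was 1.37 (1.07 to 1.68).

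*Vegfb* differed little between the outer groups, with 0.15 (0.04 to 0.25) in PC5 and -0.03 (-0.14 to 0.09) in PC20, and *Angptl4*, itself a known HIF target, had 0.22 (0.06 to 0.38) in PC5 and 2.00 (0.37 to 4.04) in PC20, the latter from 4 UMIs in the bottom group and 16 in the top one. *Angpt1* had 1.04 (0.56 to 1.53) in PC5 and -1.44 (-2.93 to -0.13) in PC20, where the outer groups held 19 and 7 UMIs. *Angpt2* in PC5 had the opposite order, from 38.4 CPM in the bottom group to 25.2 CPM in the top one, a log2 ratio of -0.61 (-0.77 to -0.46). *Pgf* had 0.49 (0.03 to 0.95) in PC5 and -0.83 (-1.25 to -0.41) in PC20, and *Angptl2* had 0.46 and -0.52. The difference of these ratios between the libraries was not tested. Deposited depth moved with these groups in PC20, from a median of 39194 UMIs in the bottom group to 28963 in the top one. With the deposited UMIs in place of thinned ones, and the list taken as a share of each cell's UMIs, the PC20 ratios were 0.89 for *Vegfa*, 1.09 for *Angptl6* and -1.29 for *Pgf*. The share of cells with proliferation UMIs was 58.5%, 65.2%, 59.6% and 46.9% from the bottom to the top group in PC20, and 29.3%, 36.3%, 38.2% and 38.5% in PC5. In cells without such UMIs the ratios were 0.93 for *Vegfa* and -1.12 for *Pgf* in PC20, where that of *Angptl6* was larger than over all cells, and 1.22 for *Vegfa*, 1.55 for *Hgf* and -0.49 for *Angpt2* in PC5.

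**Figure D4:**
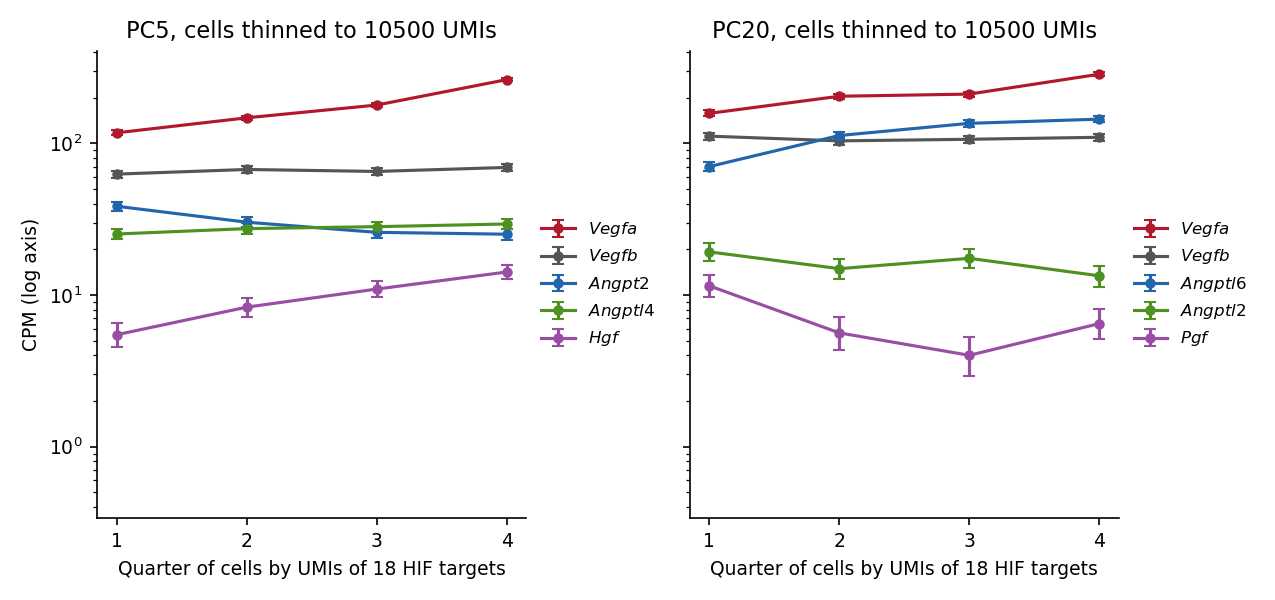
CPM (log axis) of 5 members in PC5 (left) and 5 in PC20 (right) over 4 equal groups of cells ordered by the summed UMIs of 18 HIF targets, with 95% Poisson intervals as bars, cells thinned to 10500 UMIs. *Vegfa* in both libraries, *Hgf* in PC5 and *Angptl6* in PC20 slope upward, *Vegfb* is nearly level, and *Angpt2* in PC5 slopes down.

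The genes most like each member across cells were ranked by Pearson's r on the log of 1 plus the thinned UMIs. This was done over 8847 cells in PC5 and 4474 in PC20, with only members and genes in at least 10% of the thinned cells. Cells of 1 library share its handling and its sparse counts, and r is given as a description. In PC5, *Vegfa* was nearest to *Cthrc1* (0.275), *Hmgcs1*, *Arl4c*, *Ltbp1* and *Sox4*. In PC20 it was nearest to *Ero1l* (0.285), *Malat1*, *Ndrg1*, *Bnip3* and *Neat1*, of which *Ero1l*, *Ndrg1* and *Bnip3* are in the HIF target list. *Angpt2* in PC5 was nearest to *Mgp* (0.371), and *Selenop*, *Cp* and *Chst15* were also among the nearest. *Angptl6* in PC20 reached 0.2 with *Hspa5* (0.261), a chaperone of the endoplasmic reticulum, and *Ero1l* (0.248), an oxidase of the same compartment. *Ero1l* also led the HIF target sum by which PC20 cells were ordered. How far the order of *Angptl6* and *Vegfa* over those groups rests on *Ero1l* was not tested. No gene reached 0.2 for *Vegfb* or *Angptl2* in either library, or for *Angptl4* in PC5.

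Pairs were formed only of members in at least 5% of the thinned cells of a library. This left out *Vegfc*, *Pgf*, *Angpt1* and *Angptl6* in PC5, and *Vegfc*, *Angpt1*, *Angpt2*, *Angptl4* and *Hgf* in PC20. Most such pairs were found together in nearly as many cells as the product of their shares gives. In PC5 the values ran from 0.791 of it for *Angpt2* with *Hgf* to 1.12 of it for *Vegfa* with *Hgf*. In PC20 the lowest was *Pgf* with *Angptl6*, at 0.797. The strongest correlation among these pairs, on the same log scale, was 0.0987, for *Vegfa* with *Angptl6* in PC20.

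The receptors of the factors also differed between the libraries. Of 9 receptor genes, 6 reached 10% of cells in PC5 or in PC20. *Flt1*, the receptor of *Vegfa*, *Vegfb* and *Pgf*, had 17.6 CPM in PC5 against 73.9 CPM in PC20 (log2 ratio -2.07, -2.12 to -2.02), and so was higher in PC20 like these ligands. *Kdr*, the main signalling receptor of *Vegfa*, was at 12.8 and 0.068 CPM (7.55), and so was higher in PC5 while *Vegfa* was slightly higher in PC20. *Flt4*, the receptor of *Vegfc* and *Vegfd*, was at 7.64 and 0.424 CPM (4.17), higher in PC5 like *Vegfc* and *Vegfd*.

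The co-receptors encoded by the neuropilin genes went in opposite directions, with *Nrp1* at 16.5 and 7.45 CPM (1.15) and *Nrp2* at 0.489 and 160 CPM (-8.36). *Met*, the receptor of HGF, had 18.5 CPM in PC5 against 30.6 CPM in PC20 (-0.73), so that it was present in the library where *Hgf* was at background. *Tek*, the angiopoietin receptor, had 37 UMIs in PC5 and 3 in PC20. The endothelial gene *Cdh5* moved with *Kdr* and *Flt4* between the libraries. In PC5, *Cdh5* was in 73.2% of cells, *Kdr* in 20.3% and *Flt4* in 14.6%. *Pecam1* was low, in 0.945% of PC5 cells, above the background level of 0.191%, and in 0.442% of PC20 cells. *Egfl7* was in 9.31% of PC5 and 5.14% of PC20 cells, while *Tie1* and *Cldn5* were in at most 0.168% in either. The part of any endothelial cells in these receptor levels was not tested.

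HGF is secreted as an inactive chain that proteases cut. Of 7 genes for such proteases and their inhibitors, *Plau*, at 22.3 and 0.518 CPM (5.43), and *Plat*, at 82.0 and 5.20 CPM (3.98), both for plasminogen activators, were higher in PC5, and *Spint2*, for a protease inhibitor, was higher in PC20, at 0.30 and 21.1 CPM (-6.14). The protease genes *Hgfac*, *St14* and *Hpn* were in at most 1.46% of cells in either library. *Spint1*, for another inhibitor, was in 0.332% of PC5 and 8.32% of PC20 cells. For the counts that follow, 17.9% of all expressed genes were at least 2-fold higher in PC5 and 19.1% in PC20. Of 13 other angiogenic ligands, 12 were expressed by the 10% rule, 4 of them at least 2-fold higher in PC5 and 2 in PC20. *Fgf7* was at 197 and 0.408 CPM, *Adm*, for the vessel-dilating peptide adrenomedullin, at 334 and 129 CPM, and *Efna1* at 0.0224 and 12.2 CPM. Of 8 secreted inhibitors of angiogenesis, 7 were expressed, 4 of them at least 2-fold higher in PC5, such as *Thbs1* (136 and 6.68 CPM), and 2 in PC20, among them *Serpinf1* (17.4 and 229 CPM).

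**Figure D5:**
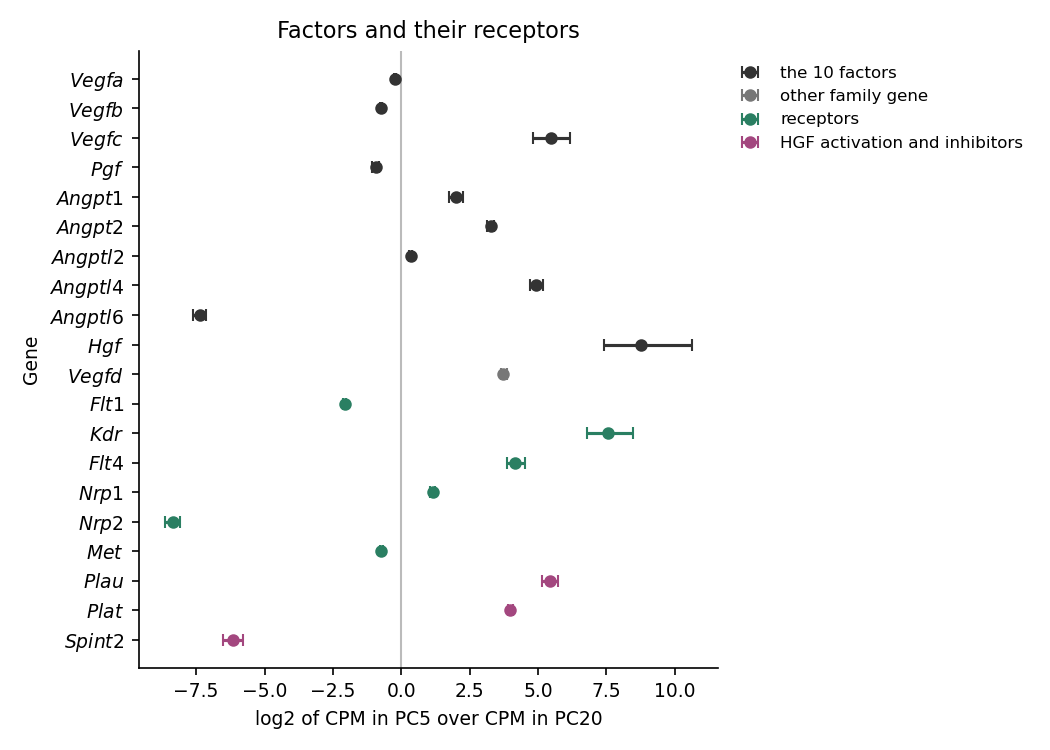
Log2 ratio of the CPM levels, PC5 over PC20, with exact 95% counting intervals as bars, for the 10 factors (black), *Vegfd* (grey), 6 receptor genes (green) and 3 genes of HGF activation and its inhibition (magenta). Points right of 0 are higher in PC5, with *Hgf* at 8.76 and *Kdr* at 7.55, and points left of 0 are higher in PC20, with *Nrp2* at -8.36 and *Angptl6* at -7.37.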

How the data were processed

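Cultured primary mouse brain PCs were analysed from 1 library at passage 5 and 1 at passage 20, grouped by their labels. The authors deposited raw counts of UMIs per gene and barcode, without normalization, made per the labels with Cell Ranger 5.0 on mm10 from droplet 3′ libraries. Cells taken directly from adult or embryonic brain were not used here. Gene positions came from GENCODE M21 (GRCm38) and promoter sequences from RefSeq (GRCm38.p6).

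Cells were filtered as the paper's methods state. CPM was computed from UMIs summed over kept cells, without a pseudocount. Intervals were exact Poisson (CPM), Clopper-Pearson (shares) or conditional binomial (ratios). Thinning drew 10500 UMIs per cell without replacement (the depth that 10% of cells fall short of, in steps of 500). Where a symbol had more than 1 identifier, the one with more UMIs was used. Clusters came from Seurat 5.3.0 in R 4.3.3 with 2000 variable genes, 15 dimensions and resolution 0.8, and those with at least 50 cells of their main library were described, on those cells only. Leading genes were the 5 of largest fold over the rest of the library among genes in at least 25% of the cluster's cells, without pseudogenes and unnamed models. Some leading or most alike genes are not reported here. Scrublet in scanpy 1.11.5 called 1 PC5 cell and 0 PC20 cells as doublets, so few that the caller had not worked, and no doublets were removed.

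All 10 members are named, with every gene of the family, receptor and HGF activation lists that reached 10% of cells in PC5 or in PC20, and other list genes as a sentence needs them. *Tek*, *Pecam1*, *Cldn5* and *Tie1* are named as defining markers. Members and lists were chosen with earlier results of these data known. Libraries of 1000 cells each were simulated with the depths of PC5 and PC20 and 200 of 9394 genes made to differ 4-fold. The sign was recovered for each of the 200, and 94.5% of their 95% intervals covered the true ratio. All simulated cells were drawn from the summed PC5 counts with counting error only. The coverage therefore checks the computation and not intervals for genes spread unevenly between cells, such as *Vegfa* and *Angpt2*. Alternatives were other cell filters, cells without proliferation UMIs, thinned cells, other library totals, other expression minimums and other cluster settings.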

Additional observations from a re-analysis of the deposited data

How the results depend on the processing

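Of the 8 members in at least 10% of cells, 4 were past 2-fold between the libraries. Over all genes so expressed, 17.9% were at least 2-fold higher in PC5 and 19.1% in PC20. The number of members lay between 3 and 6 under the alternatives, for which the share over all genes was not computed. The number was 3 in thinned cells, where 6 of the 10 genes were in 10% of cells and *Hgf* no longer was. In cells without *Mki67* or *Top2a* UMIs at deposited depth it was 5, where *Pgf* was added. It was 6 with a minimum of 1% of cells or with none, where *Vegfc* and *Angpt1* were added. All log2 ratios kept their direction under the 7 settings tried. The largest moves were in thinned cells, with 7.25 for *Hgf* (main value 8.76) and 6.25 for *Vegfc* (5.47), each resting on 3 UMIs in PC20. The median of all expressed genes stayed between -0.05 and 0.02. At resolution 0.4, which gave 7 clusters, the highest cluster over the library moved by more than 1.5 times for 5 members in PC5. Over the groups by HIF target UMIs, every ratio whose interval of counting error excluded 0 kept its sign without thinning and in cells without proliferation UMIs. Without thinning the variance over the mean in PC20 was higher for all members but *Vegfc* and *Hgf*, at 5.25 in place of 1.59 for *Vegfa*.

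No paired analysis was possible because each passage has 1 library. Few counts limit the PC20 levels of *Vegfc* and *Hgf*, at 20 and 4 UMIs, although PC20 had more UMIs per cell than PC5.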
